A study of Rattus norvegicus with 3 samples.

Results

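Fatty acid uptake and mitochondrial beta-oxidation were followed through 31 named genes, from the carriers that bring fatty acids into a heart muscle cell to the enzymes that break them down and the regulators of their transcription. The genes were chosen by name, with no measured value in the rule, and a row of the deposited expression table was taken where its gene symbol equalled one of the names. Of the 31 genes, 30 had a row of their own among the 17450 rows of the table. Cd36 shared a joint row with RGD1565355, so that its level could not be separated from that of RGD1565355, and this row was kept apart from the 30. The authors tested 29 of the 30 in each comparison, all but Ucp3.

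RNA was sequenced from cultured ventricular heart muscle cells of 1 day old Sprague Dawley rat pups, purified on Percoll with a preplating step and held in a high-glucose medium that was made serum-free. One group received the ethanol vehicle, one 100 nM dexamethasone (Dex), a synthetic agonist of the glucocorticoid receptor (GR), for 1 h, and one the same dose for 24 h. Each group was 1 sample, marked as a duplicate in its title without saying of what, and the table gives 1 value per gene and group as FPKM, fragment numbers corrected for transcript length and for library size. No treatment time is given for the ethanol cells, which served as control for both times. An effect of Dex, at 1 h or at 24 h, thus cannot be told apart from one of time in culture. The sources used here do not give the number of pups or preparations behind a sample.

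Long-chain fatty acids are the main fuel of the adult heart. They cross the cell membrane with the help of CD36 and fatty acid transport proteins, are carried in the cytosol by FABP3, and are activated to acyl-CoA. The carnitine shuttle moves them into mitochondria, where each turn of the beta-oxidation spiral removes an acetyl-CoA and passes electrons to the respiratory chain. PPAR nuclear receptors and their coactivator PGC-1α drive transcription of many of these genes, and the newborn heart is in transition from glucose and lactate towards this fuel.

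The words rose and fell are kept for genes that carry the significance mark of the authors' deposited table, given at a q-value of at most 0.05 over all genes and comparisons. The error beside a log2 fold is a standard error (SE), obtained as its size over that of the test statistic in the same table. No replicate values were at hand. The deposited p-values were smaller than a normal distribution gives for these statistics. For Hadh at 24 h the statistic was −1.79 and the p-value of the authors' test 0.0123. The SEs are therefore wider than the p-values imply and are a rough guide only. These SEs had a median of 0.32 among the 29 tested genes at 1 h, above the standard deviation of their log2 folds, 0.14. Sequencing depth is unknown. In bulk RNA, fewer cells of a type and less RNA per cell cannot be told apart.

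The cultures carried the transcripts of heart muscle. The 9 cardiomyocyte marker rows, Tnnt2 and Actc1 among them, summed to 20631 FPKM in control, 19386 at 1 h and 22226 at 24 h, and none was called in any comparison. Markers of other cell types were present too. Smooth muscle and pericyte markers summed to 8530.1, 7397 and 9351 FPKM. Acta2 and Tagln made up most of this, with 4806 and 3491 FPKM in control, where Cnn1 had 131, Myh11 70.9, Rgs5 22.7 and Abcc9 7.90. Fibroblast markers summed to 2652, 2580.1 and 2114 FPKM, mostly from Col3a1, with 2079, 1972 and 1537 FPKM. At 24 h Tcf21, Dcn, Pdgfra and Lum were above control and Ddr2 and Postn below. Such sums rest on a few genes and do not measure cell numbers. Endothelial markers had 143, 141 and 213 FPKM, macrophage markers 112, 117 and 177 FPKM, and erythroid markers 128, 268 and 279 FPKM. Among the macrophage markers Lyz2, C1qb, Cd163 and Csf1r were above control at 24 h and Cd68, Emr1 and Ptprc below. Adipocyte markers summed to 2.62, 2.45 and 3.17 FPKM, with Retn listed at 0 in every group. Nearly all of this was Cfd, with 2.58, 2.41 and 3.12 FPKM, whose row is uncertain.

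In control, the fatty acid genes stood above the usual level of an expressed gene. Their median was 33.0 FPKM, against 15.4 FPKM for all genes with at least 1 FPKM, and 23 of the 30 lay above that second value. At least 100 FPKM was reached by 5 of the 30, Fabp3, Hadhb, Etfb, Acadl and Hadha. Another 18 lay between 10 and 100 FPKM, 5 between 1 and 10 FPKM, and Slc27a6 and Ucp3 lay below 1 FPKM. At 24 h the median was 31.1 FPKM.

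**Figure D1:**
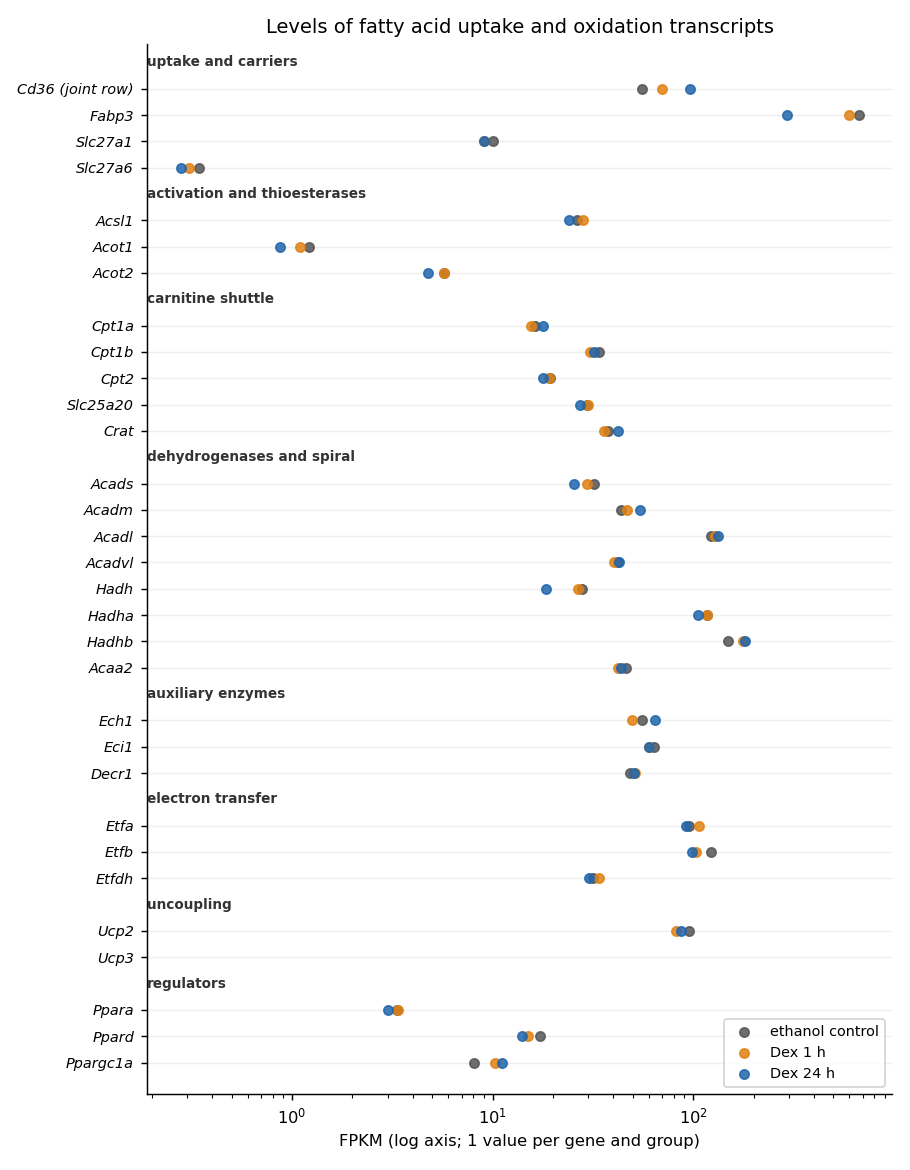
FPKM of each fatty acid gene on a log axis, with 1 point per group (ethanol control, Dex 1 h, Dex 24 h) and no error because the groups have 1 value each. Ucp3, listed at 0 FPKM in 2 groups, has no point. The points of most genes lie close together, while Fabp3 stands at 294 FPKM at 24 h against 667 in control and the joint row of Cd36 at 96.6 against 55.6.

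None of the 29 tested genes was called at 1 h, where 0.863% of all 11582 tested genes were, 0.622% higher and 0.242% lower. None had an unadjusted p-value under 0.05 in the authors' deposited table either, against 2.76% of all tested genes. At 24 h 1 of 29 was called, Fabp3, which fell, where 6.22% of all 11673 tested genes were called, 4.18% higher and 2.04% lower. The joint row of Cd36 rose at 24 h and stands outside this count. Between 24 h and 1 h of Dex, 1 of 29 was called as well, Fabp3 again, against 4.92% of 11641 tested genes, 3.31% higher and 1.61% lower. An unadjusted p-value under 0.05 was found there for 2 of 29 in the authors' deposited table, Fabp3 and Hadh, against 12.4%. Of the 29, 24 lay within a log2 fold of 0.25 of no change, against 66.8%. With a mean of at least 10 FPKM it was 20 of 23, against 77.7%. This last comparison uses the same 24 h sample, and both comparisons with ethanol use the same control.

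The log2 folds of the 29 genes at 1 h ran from −0.26 (Etfb) to 0.34 (Ppargc1a), with a median of −0.06, 11 above and 18 below 0. Over all genes tested the median was −0.00. At 24 h they ran from −1.18 (Fabp3) to 0.45 (Ppargc1a), with a median of −0.11, 9 above and 20 below 0, beside −0.00 over all genes tested. Within a log2 fold of 0.25 of no change lay 27 of 29 at 1 h and 18 of 29 at 24 h, where 80.2% and 60.7% of all tested genes did. With a mean of at least 10 FPKM it was 22 of 23 and 16 of 23, against 87.1% and 69.9% of all tested genes. At 24 h the share was thus near the background of that level. At least a 1.5-fold difference was reached by none of 29 at 1 h, against 3.68% of all tested genes. At 24 h Fabp3 and Hadh reached it, 2 of 29, against 14.3%. From 1 h to 24 h only Fabp3 did, against 12.5%.

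**Figure D2:**
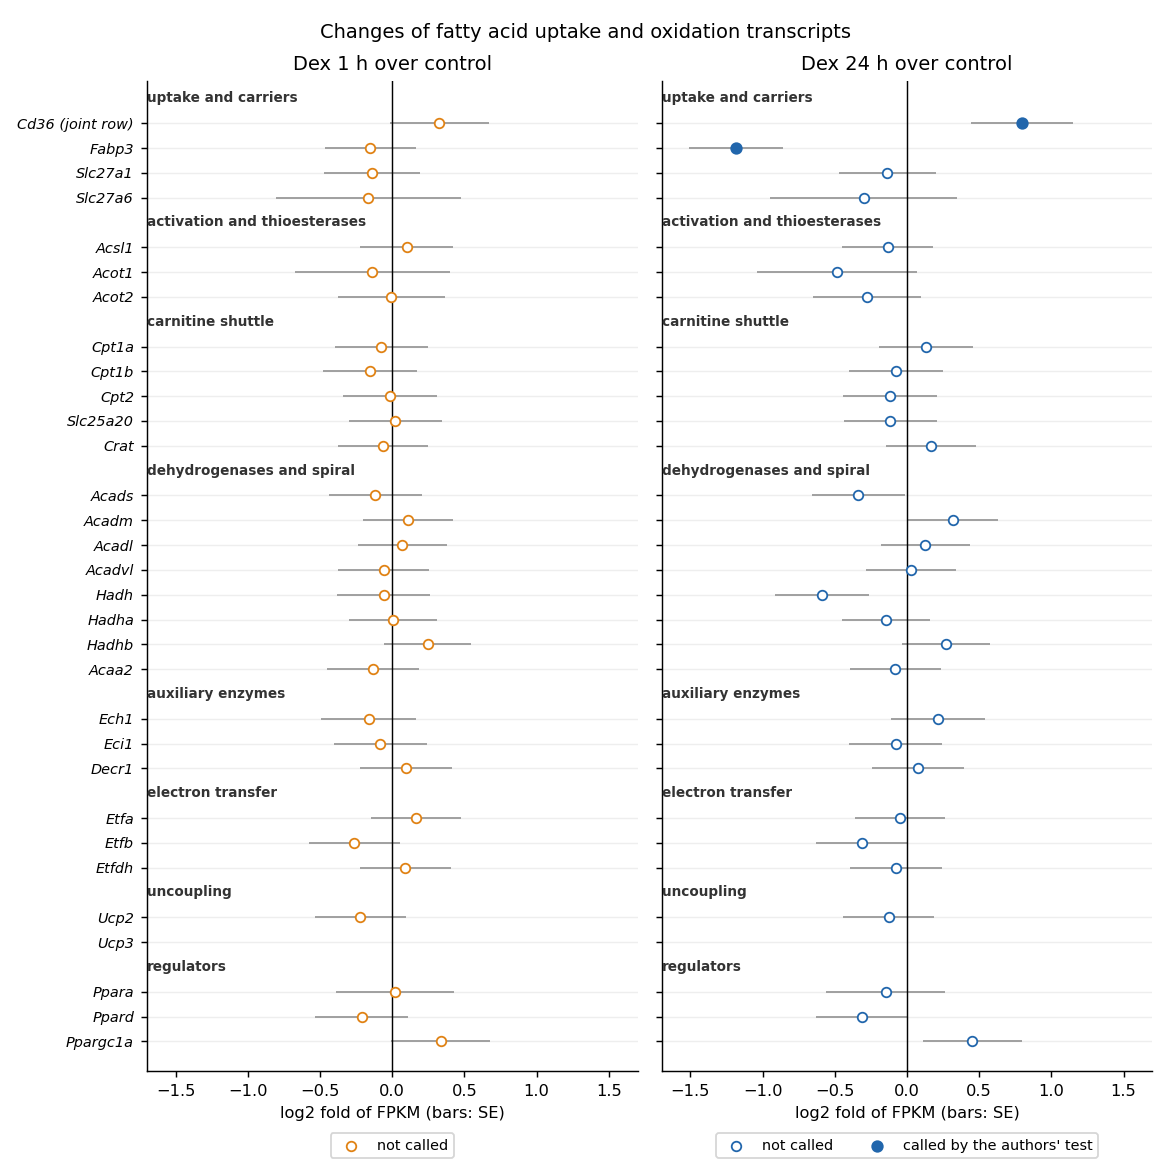
Log2 fold of FPKM over ethanol control for each fatty acid gene at 1 h (left) and 24 h (right), grouped by role. Points are log2 folds, bars are SEs, and filled points were called by the authors' test. The 2 filled points at 24 h are the joint row of Cd36 at 0.80 and Fabp3 at −1.18, while the uncalled log2 folds run from −0.59 (Hadh) to 0.45 (Ppargc1a).

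Uptake and carriers held both calls, in opposite directions. Fabp3, the fatty acid binding protein of heart muscle cytosol (XLOC_012794, rn5 chr5:152246264-152294518), had 667 FPKM in control, 600.2 at 1 h and 294 at 24 h. Control and 1 h lay close together and 24 h lay below both. Its log2 fold at 24 h was −1.18 ± 0.32 and its level fell by 56.0%, with a q-value of 0.00238 in the authors' deposited table, the smallest value that table holds. Its 1 h log2 fold was −0.15 ± 0.32. Fabp3 ranked 174 by FPKM among all rows in control and was the most abundant of the 30 genes in each group. Its row shares its locus with Zcchc17, which had 16.3, 16.5 and 16.9 FPKM, so the value of Fabp3 is uncertain to the extent that fragments could be assigned to either row. Of the 9 cardiomyocyte marker rows none was called at 24 h. By value Tnni3 (563 FPKM in control and 505 at 24 h) and Actn2 (621 and 579 FPKM) were lower and the other 7 higher. Among those 7 the rows of Myh6, Myh7 and Pln are uncertain. The part of the cell make-up in the fall of Fabp3 was not tested.

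Fabp3 accounted for nearly all of the drop in summed FPKM. The 30 genes summed to 1969 FPKM in control, 1899 at 1 h and 1586 at 24 h, which was 0.302%, 0.295% and 0.241% of all FPKM. Without Fabp3 the sums were 1302, 1298 and 1292 FPKM. 
The joint row of Cd36, the membrane receptor that takes up long-chain fatty acids, and RGD1565355 (XLOC_011411, rn5 chr4:14014704-14216207) had 55.6 FPKM in control, 69.7 at 1 h and 96.6 at 24 h. The 3 values stood in the order of exposure, with 24 h highest. The log2 fold was 0.33 ± 0.34 at 1 h, which was not called, and 0.80 ± 0.35 at 24 h, with a q-value of 0.0325 in the authors' deposited table. Between 24 h and 1 h it was 0.47 ± 0.33 and was not called. Cd36 is also made by capillary endothelium, macrophages, adipocytes and erythroid precursors. Of 7 endothelial marker rows 4 rose at 24 h, of 7 macrophage rows 2 rose and 1 fell, and of 5 erythroid rows 4 rose at each time, with 4 tested at 1 h. Of 6 adipocyte rows only 1 was tested, and it was not called. Among fibroblast markers Tcf21 rose at 24 h (log2 fold 0.87 ± 0.32), and among smooth muscle and pericyte markers Abcc9 rose (0.95 ± 0.32) and Rgs5 fell (−1.43 ± 0.43). The part of these cells in the rise of the Cd36 row was not tested.

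The start regions of the genes with calls are shown because the receptor's own sites could be looked for there. Each runs from 250 bases before the RefSeq start to the first transcribed base, which is in capitals, on the GRCr8 build and not on the rn5 build of the expression table. Fabp3 lies on the plus strand at chr5:147935875-147936125 and Cd36 on the plus strand at chr4:18246332-18246582.
Fabp3: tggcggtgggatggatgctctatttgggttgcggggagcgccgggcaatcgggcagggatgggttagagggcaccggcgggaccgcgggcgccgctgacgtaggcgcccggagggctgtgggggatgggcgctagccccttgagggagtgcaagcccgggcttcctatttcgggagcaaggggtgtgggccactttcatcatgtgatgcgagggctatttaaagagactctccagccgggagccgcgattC
Cd36: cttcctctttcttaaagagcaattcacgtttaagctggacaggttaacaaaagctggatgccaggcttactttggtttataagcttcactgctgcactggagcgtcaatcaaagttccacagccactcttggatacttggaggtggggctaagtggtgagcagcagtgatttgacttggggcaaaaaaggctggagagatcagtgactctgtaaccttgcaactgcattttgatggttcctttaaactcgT
Both were searched, with 50 further bases, for the GR hexamer AGAACA, the full site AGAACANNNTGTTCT and the PPAR site AGGTCANAGGTCA on both strands, and held none of these letters. The Fabp3 stretch had a GC content of 65.7% and 21 CpG dinucleotides, the Cd36 stretch 45.4% and 3.

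The other carriers were low. Slc27a1, a fatty acid transport protein of muscle and fat, had 9.99 FPKM in control, 9.08 at 1 h and 9.10 at 24 h. Slc27a6, a transport protein described from heart, had 0.342, 0.305 and 0.278 FPKM, the lowest level of the 29. Neither was called, with 24 h log2 folds of −0.14 ± 0.33 and −0.30 ± 0.65. The wide SE of Slc27a6 goes with its low level.

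Activation and its reversal gave no call. Acsl1, the main long-chain acyl-CoA synthetase of heart, had 26.2 FPKM in control, 28.1 at 1 h and 23.9 at 24 h (24 h log2 fold −0.13 ± 0.32). The thioesterases that cleave acyl-CoA back to free acid were far lower. Acot2, in mitochondria, had 5.75, 5.73 and 4.74 FPKM, and Acot1, in the cytosol, had 1.21, 1.10 and 0.866 FPKM. Their 24 h log2 folds were −0.28 ± 0.37 and −0.48 ± 0.55. The 2 genes are close paralogs lying 17565 bases apart, and the split of fragments between them is uncertain.

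The carnitine shuttle gave no call. Cpt1b, the muscle form of the outer-membrane carnitine palmitoyltransferase that sets the rate of entry, had 33.9 FPKM in control, 30.4 at 1 h and 32.2 at 24 h. Cpt1a, the liver form, which the newborn heart also expresses, had 16.3, 15.5 and 17.9 FPKM. The muscle form was thus the higher of the pair in each group, by 2.07-fold in control, 1.96-fold at 1 h and 1.80-fold at 24 h. The 24 h log2 fold of Cpt1b minus that of Cpt1a was −0.21 ± 0.46, taking the errors of the genes as independent, so this drift is within the error.

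The other steps of the shuttle lay at similar levels. Slc25a20, the carnitine-acylcarnitine translocase, had 29.4, 29.8 and 27.1 FPKM. Cpt2, which reforms acyl-CoA in the matrix, had 19.3, 19.1 and 17.7 FPKM. Crat, which exchanges acetyl groups with carnitine, had 37.6, 36.1 and 42.3 FPKM. The 24 h log2 folds of the 5 shuttle genes lay between −0.12 and 0.17, each smaller than its SE, and none was called. Together the 5 summed to 136 FPKM in control, 131 at 1 h and 137 at 24 h.

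None of the 8 enzymes of the spiral was called in any comparison. Among the acyl-CoA dehydrogenases, which take the first step on chains of decreasing length, Acadl (long chain) had 122 FPKM in control, 129 at 1 h and 134 at 24 h. Acadvl (very long chain) had 41.9, 40.2 and 42.7 FPKM. Its locus also holds a microRNA row listed at 0 in every group. Acadm (medium chain) had 43.6, 47.0 and 54.4 FPKM, and Acads (short chain) had 32.1, 29.6 and 25.4 FPKM. The 24 h log2 folds of the medium and short chain enzymes were 0.32 ± 0.31 and −0.34 ± 0.32, and neither was called.

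Hadh, the short-chain 3-hydroxyacyl-CoA dehydrogenase, came nearest to a call among the uncalled genes. It had 27.8 FPKM in control, 26.7 at 1 h and 18.5 at 24 h, so that 24 h again lay below both others. Its 24 h log2 fold was −0.59 ± 0.33, with an unadjusted p-value of 0.0123 and a q-value of 0.199 in the authors' deposited table. Fabp3 and Hadh were the 2 of 29 with an unadjusted p-value under 0.05 at 24 h, where 14.3% of all tested genes had one. Hadh had no GR region assigned to it.

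The trifunctional protein, which carries out the last 3 steps on long chains, is built from the products of Hadha (alpha subunit) and Hadhb (beta subunit). Hadha had 117 FPKM in control, 118 at 1 h and 106 at 24 h. Hadhb had 149, 177 and 180.2 FPKM. Hadhb was the higher in each group, and the ratio of Hadha to Hadhb was 0.785 in control, 0.666 at 1 h and 0.588 at 24 h. The 24 h log2 fold of Hadha minus that of Hadhb was −0.42 ± 0.43. That is about the size of its SE, which is wider than the deposited p-values imply, and the difference was not tested. Acaa2, the mitochondrial thiolase, had 46.2, 42.1 and 43.7 FPKM. The 8 dehydrogenase and spiral genes summed to 580.4 FPKM in control, 609 at 1 h and 604 at 24 h.

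The auxiliary enzymes handle the double bonds of unsaturated fatty acids. Ech1, a dienoyl-CoA isomerase, had 55.4 FPKM in control, 49.5 at 1 h and 64.2 at 24 h. Eci1, an enoyl-CoA isomerase, had 63.6, 60.0 and 60.2 FPKM, and Decr1, a dienoyl-CoA reductase, had 48.2, 51.5 and 50.8 FPKM. None was called, and their 24 h log2 folds lay between −0.08 and 0.21.

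Electron transfer flavoprotein passes electrons from the dehydrogenases to ubiquinone. Its alpha subunit Etfa had 95.4 FPKM in control, 107 at 1 h and 92.2 at 24 h. Its beta subunit Etfb had 123, 103 and 99.1 FPKM, with both Dex values below control. The 24 h log2 fold of Etfb was −0.31 ± 0.31 and it was not called. Etfdh, the oxidoreductase that hands the electrons on, had 31.7, 33.7 and 30.1 FPKM. The ratio of Etfa to Etfb was 0.775 in control, 1.04 at 1 h and 0.931 at 24 h, and the 24 h log2 fold of Etfa minus that of Etfb was 0.26 ± 0.44.

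The uncoupling proteins sit in the inner membrane, where their function in heart is debated. Ucp2, found in many tissues, had 95.0 FPKM in control, 81.6 at 1 h and 87.1 at 24 h, and was not called. Ucp3, the form of skeletal muscle and heart, was listed at 0 FPKM in control and at 1 h and had 0.00563 FPKM at 24 h. It was not tested. The 2 loci lie 13845 bases apart.

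The regulators lay at lower levels than the enzymes of the spiral. Ppara, the nuclear receptor that drives fatty acid oxidation in heart and liver, had 3.33 FPKM in control, 3.37 at 1 h and 3.01 at 24 h (24 h log2 fold −0.15 ± 0.41). Ppard, its paralog with overlapping targets in muscle, had 17.3, 14.9 and 13.9 FPKM (−0.31 ± 0.32). The level of Ppard was 5.19 times that of Ppara in control and 4.63 times at 24 h. Ppargc1a, which encodes the coactivator PGC-1α, had 8.09, 10.2 and 11.1 FPKM, both Dex values above control. Its 24 h log2 fold was 0.45 ± 0.34, the highest of the 29, with an unadjusted p-value of 0.0636 and a q-value of 0.583 in the authors' deposited table. None of the 3 was called.

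**Figure D3:**
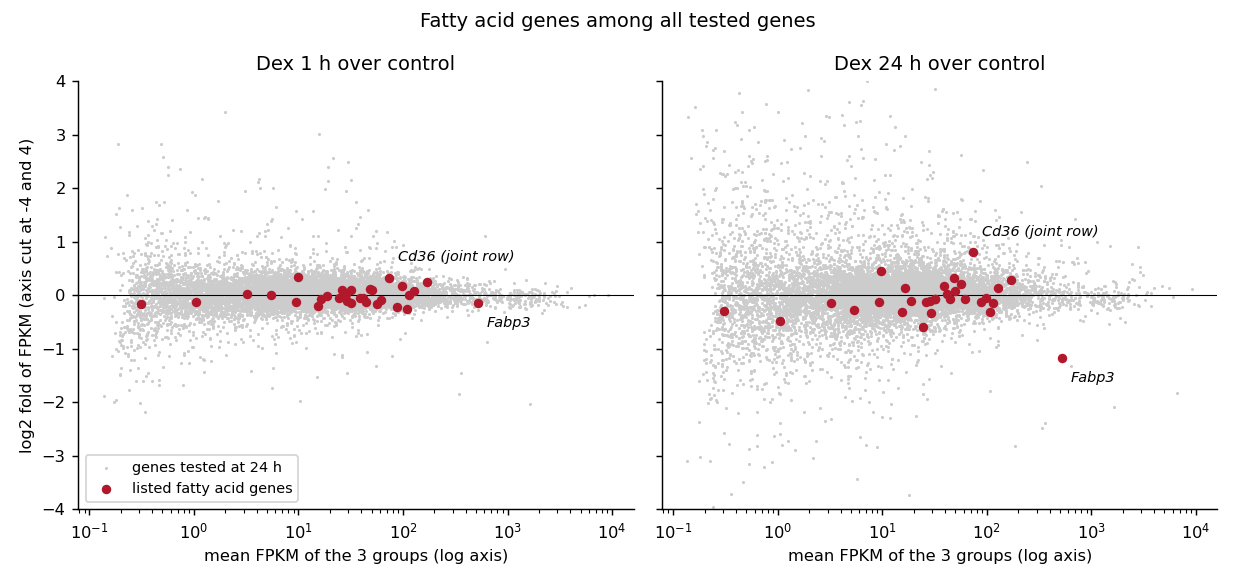
Log2 fold of FPKM over control at 1 h (left) and 24 h (right) against the mean FPKM of the 3 groups on a log axis, for the genes tested at 24 h (grey) and the fatty acid genes (red). The axis is cut at −4 and 4. The red points lie within the spread of the grey ones at both times. Farthest from 0 among them at 24 h are Fabp3 at −1.18 and the joint row of Cd36 at 0.80.

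GR binding near these genes was taken from the authors' integrated sheet, whose ChIP experiment compared Dex with DMSO and belongs to another series. Of the 30 genes 16 (53.3%) had at least 1 GR region assigned by the authors. Among all genes tested at 24 h the share was 45.7%, and among the 6685 of them with a mean of at least 10 FPKM it was 53.9%. At that level 13 of 23 fatty acid genes had a region, so the share is near the background. Neither Fabp3 nor the Cd36 row had one. None of the 16 genes with a region was called at 1 h, where 1.28% of all tested genes with a region were, or at 24 h, where 6.32% were. Their median 24 h log2 fold was −0.06 (range −0.31 to 0.45). The 13 tested genes without one had a median of −0.28 (range −1.18 to 0.32), with Fabp3 as the 1 call at 24 h. Of all tested genes without a region 0.51% were called at 1 h and 6.14% at 24 h. With so few genes on either side, the counts are near the background and no difference between them was tested.

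The 16 genes shared 21 regions, and 10 of the 21 were assigned to further genes too, so that a region does not point to 1 gene alone. The height of a region, its highest average tag value, had a median of 17.6 over the 21, against 20.9 over all 8514 regions, and 9 of the 21 lay at or above that second value. The log2 ratio of Dex over DMSO ranged from 0.52 to 5.36 over the 21, with a median of 2.19 against 2.42 over all regions.

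The regulators carried the highest of these regions. Ppara had 4, the most of any gene in the set. The highest of them, in the gene 41053 bases from its start (rn5 chr7:126371712-126372061), had a height of 52.9 and a log2 ratio of 5.36, and ranked 320 among all regions. The others lay at −1106 bases, upstream (height 27.1), 59403 bases into the gene (31.8) and 71929 bases away on the downstream side (17.1). The one at 59403 bases was also assigned to RGD1306001, and the one at 71929 bases to Pkdrej and RGD1306001. Ppargc1a had 2 in the gene, 15781 bases (height 34.1) and 34894 bases (height 16.6) from its start, and Ppard had 1, 36593 bases from its start (height 26.5). Beside these regions, Ppara was listed at 3.33, 3.37 and 3.01 FPKM, and none of the 3 regulators was called.

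**Figure D4:**
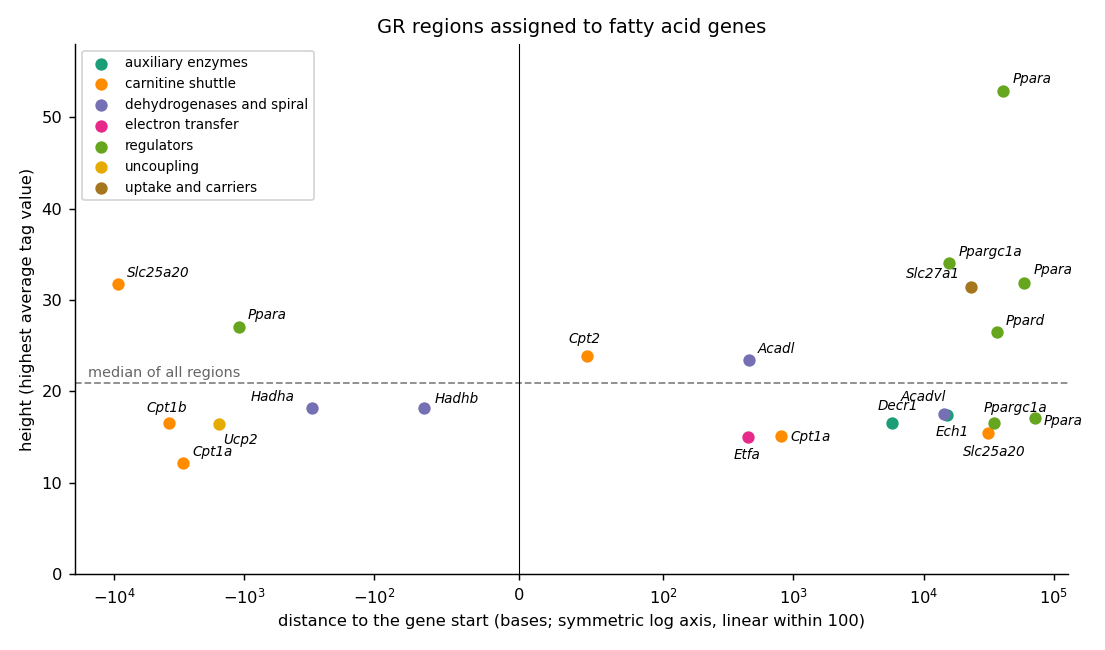
Height of each GR region assigned to a fatty acid gene against how far it lies from the gene start (bases, negative upstream), on a symmetric log axis that is linear within 100 bases. Colours mark the role of the gene, and the dashed line is the median height of all regions, 20.9. The highest point is the Ppara region at 52.9, and the region shared by Hadha and Hadhb appears once for each gene.

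Within 1000 bases of a start lay 6 of the 22 pairs of gene and region (27.3%), against 37.2% of all pairs in the sheet. A single region lay between Hadha and Hadhb (rn5 chr6:37399932-37400482, height 18.2, log2 ratio 1.48), at −304 bases from the start of Hadha and −66 bases from that of Hadhb by the authors' distances. The gap between the rn5 loci of the 2 rows is 6852 bases, so those distances rest on another gene model than the expression rows. In RefSeq on GRCr8 the 2 genes start 301 bases apart on opposite strands. A region lay at the start of Cpt2 (rn5 chr5:131370587-131370962, 47 bases from it, height 23.9, log2 ratio 2.17). Acadl had one 453 bases, Etfa one 451 bases and Cpt1a one 807 bases into the gene.

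The remaining regions lay farther from the starts. Those above the median height belonged to Slc25a20 (at −9385 bases, height 31.7, also assigned to Arih2) and Slc27a1 (22988 bases downstream, height 31.5, also assigned to Fam129c and Pgls). Cpt1a had a second one at −2941 bases (height 12.1, the lowest of the 21), Cpt1b one at −3822 bases (16.6) and Ucp2 one at −1557 bases (16.4). Ech1 and Decr1 had regions with heights of 17.4 and 16.6 and log2 ratios of 4.12 and 4.05, above the median ratio of all regions. Acadvl had its only region (height 17.6) and Slc25a20 its other one (15.4) on the downstream side, both assigned to several genes.

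The start region of Cpt2 is shown because its GR region lay closest to a start, and that of Hadha because one GR region was assigned to it and to Hadhb. They follow the same layout as above, with the first transcribed base in capitals, Hadha on the plus strand at chr6:31907551-31907801 and Cpt2 on the minus strand at chr5:127910818-127911068 of GRCr8.
Hadha: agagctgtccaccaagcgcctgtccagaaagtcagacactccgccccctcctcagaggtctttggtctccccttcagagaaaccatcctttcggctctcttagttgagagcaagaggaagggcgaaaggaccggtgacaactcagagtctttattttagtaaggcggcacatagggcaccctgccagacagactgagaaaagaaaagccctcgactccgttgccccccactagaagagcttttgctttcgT
Cpt2: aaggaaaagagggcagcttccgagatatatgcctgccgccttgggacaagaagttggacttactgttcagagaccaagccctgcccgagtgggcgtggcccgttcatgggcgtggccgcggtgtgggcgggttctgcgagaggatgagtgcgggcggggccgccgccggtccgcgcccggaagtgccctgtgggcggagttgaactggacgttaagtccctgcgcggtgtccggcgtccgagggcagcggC
Neither window, with its 50 further bases, held a GR hexamer, full site or PPAR site in these letters. The GR regions of Hadha and Cpt2 are 550 and 375 bases long, more than the 300 bases searched. Their own sequences were not read, because no rn5 genome was at hand. Whether the GR regions hold such sites is therefore unknown. RefSeq promoters of 300 bases were matched by symbol for 25 of the 31 genes. The GR hexamer, in either orientation, was in 2 of them, Acot2 (at −241 bases from the start) and Acot1 (at −165 bases, as TGTTCT), against 20.7% of all 33469 promoters. The full site was in none of the 25 and in 0.0149% of all, and the PPAR site in none and in 0.0538%. Each full site contains the hexamer in both orientations. The median GC content was 58.3% over the 25 and 51.7% over all promoters.

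Lists of genes around the pathway were counted in the same way. The peroxisomal beta-oxidation list gave no call among 13 tested rows at any comparison, with a median log2 fold of 0.06 at 24 h. Its highest member, Hsd17b4, the peroxisomal multifunctional enzyme, had 29.8 FPKM in control, 31.3 at 1 h and 29.5 at 24 h. In the list of other mitochondrial and acyl-CoA enzymes 1 of 19 tested rows fell at 24 h, none rose and 18 were not called (median 0.14). The one that fell was Acacb, the acetyl-CoA carboxylase whose product malonyl-CoA inhibits CPT1, with 7.33, 6.30 and 3.17 FPKM and a log2 fold of −1.21 ± 0.33. Its 1 h value was near control and its 24 h value was below both, and it was called between 24 h and 1 h as well. The highest of this list, Hsd17b10, a mitochondrial dehydrogenase, had 94.5, 83.7 and 86.0 FPKM.

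Other carriers and uptake genes gave 4 that rose at 24 h, none that fell and 5 that were not called (median 0.18). Fabp4, the binding protein of adipocytes, macrophages and capillary endothelium, had 11.1 FPKM in control, 13.1 at 1 h and 60.3 at 24 h (log2 fold 2.44 ± 0.40). Cav2, a caveolin, had 15.4, 18.5 and 27.3 FPKM (0.82 ± 0.33). Lpl, the lipoprotein lipase that frees fatty acids for uptake, had 47.4, 55.0 and 82.6 FPKM (0.80 ± 0.31). The fourth was Cav1, another caveolin, named after its value was seen (0.74 ± 0.31). Fabp5, a binding protein of many tissues, had 457, 445 and 441 FPKM and was not called. The level of Fabp3 was above that of Fabp5 in control and at 1 h and below it at 24 h. The endothelial, macrophage, erythroid, fibroblast and pericyte markers given above had calls at the same time, and their part in these rises was not tested.

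In a broader list of nuclear receptor partners, coregulators and related regulators, 2 of 22 tested rows rose at 1 h and none fell (median −0.02). At 24 h 1 rose and 1 fell (median 0.03). Klf15, a transcription factor of cardiac lipid metabolism, had 6.22, 27.2 and 24.7 FPKM and rose at both times. Lpin1, a phosphatidate phosphatase that in mouse liver also acts as a coactivator with PGC-1α, had 7.15, 12.2 and 9.02 FPKM and rose at 1 h (0.77 ± 0.34). Rxrg, a partner receptor of the PPARs, had 1.31, 1.11 and 0.0723 FPKM and fell at 24 h (−4.18 ± 0.90, and −1.11 with 1 added to both FPKM values). The ketone body and acetyl-CoA list had 1 of 9 that rose at 1 h (median 0.03) and 2 of 9 that rose at 24 h (median 0.14), with none that fell at either time. Pdk4, a kinase that restrains glucose oxidation, had 4.06, 32.8 and 10.7 FPKM and rose at both times.

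Known targets of PPARα outside the 31 genes, a list that shares Pdk4 and other genes with the ones before, had 1 of 13 tested rows that rose and 1 that fell at 1 h (median −0.07). At 24 h 4 of 14 rose and 1 fell (median 0.37). Of the 4, 2 were rows of Pnpla2, the triglyceride lipase, with 20.3, 23.5 and 57.6 FPKM in the first and 20.7, 23.8 and 57.9 FPKM in the second, so its value is uncertain. Pdk4 rose as well. G0s2, an inhibitor of that lipase, had 40.8, 18.7 and 18.7 FPKM and fell at both times, with log2 folds of −1.13 ± 0.36 and −1.12 ± 0.36. The background of calls for all these lists is the one given above, 0.863% at 1 h and 6.22% at 24 h.

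**Figure D5:**
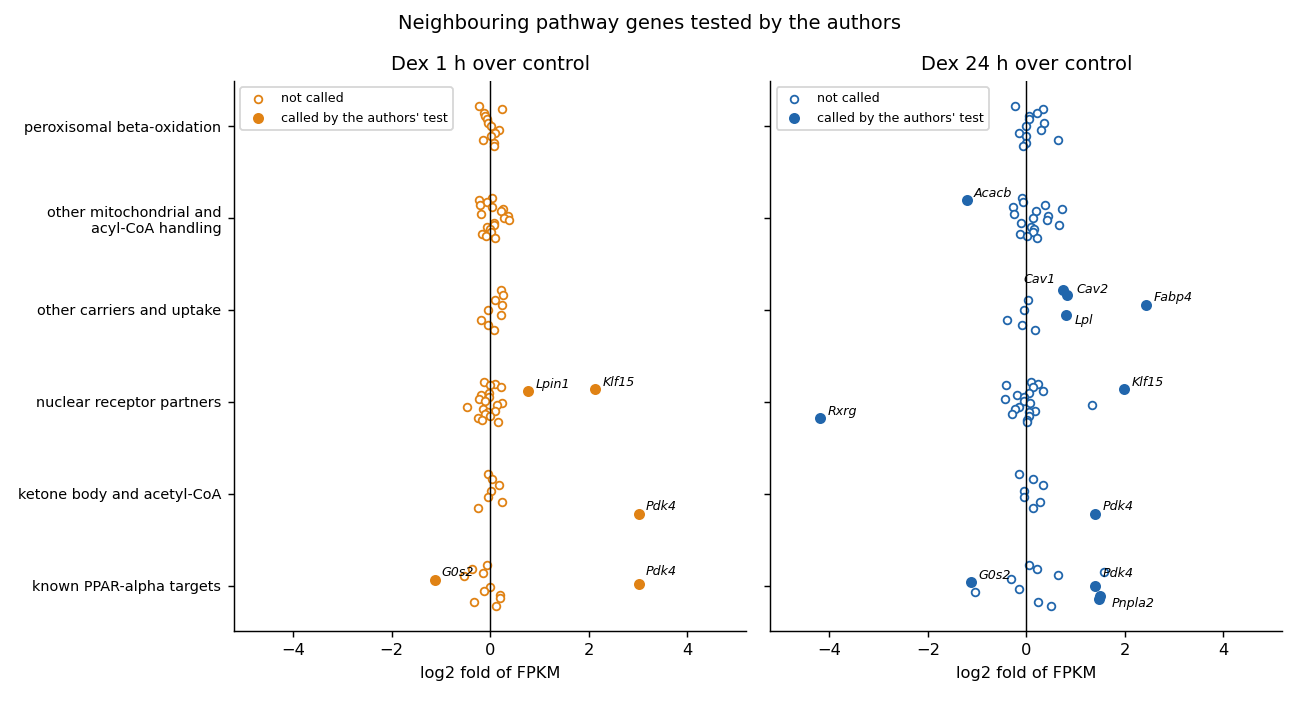
Log2 fold of FPKM over control at 1 h (left) and 24 h (right) for tested genes of 6 lists around the pathway, with filled points called by the authors' test. Points are single gene rows without error bars and are spread vertically only to keep them apart. At 24 h the peroxisomal list has no filled point, while Fabp4 stands at 2.44 and Rxrg at −4.18.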

How the data were processed

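The genes and lists were chosen with earlier results of these data known. The submitters' processing notes name TopHat, Cufflinks, Cuffdiff and the build rn5 and give no version or role. Per the file headers, the authors deposited 1 FPKM value per gene and group, a test statistic (used as a score), a p-value and a q-value for each pair of groups. The sources used here do not give the library scaling, and depth is unknown. Adjusting all 34896 deposited p-values together by Benjamini-Hochberg gave the deposited q-values to within 5.2e-07. Calls are the authors' mark, a q-value of at most 0.05. With 1 value per group no test was run here, and the spread behind the authors' test may be technical.

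Log2 folds are plain ratios of the deposited FPKM values. The SE is the size of a log2 fold over the size of its deposited statistic, and the deposited p-values imply narrower errors. Symbols were matched exactly. Rows sharing their locus (1546), their symbol (948) or holding joined symbols (114) were taken as uncertain. Among the marker rows these were Myh6, Myh7, Pln, Cfd and the joint row of Hbb with LOC100134871. The lists around the pathway also count uncertain rows that are not named. For the other lists, up to 3 called genes per list and comparison with an FPKM of at least 1 were named, or the gene of highest mean FPKM where the list held no call. Cav1 and the Acsl genes other than Acsl1 were named after their values were seen. One gene of these lists is counted but neither reported nor plotted here. For GR regions the authors deposited a signal, the highest average tag value, a log2 ratio of Dex over DMSO, and a distance to the gene start. The sources used here name no peak caller or scaling for them. The sheet's 6 per-sample columns were left unused. Promoters came from RefSeq (GRCr8), and coordinates were not converted between builds. The computations used Python 3.11.15, pandas 2.3.3 and numpy 2.4.6 and were tested on simulated data. Alternatives changed the q-value limit, the adjustment, a fold minimum, an FPKM minimum, the pseudocount, the centring, the rows and the limits on regions.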

Additional observations from a re-analysis of the deposited data

Results flagged for a closer look

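Fabp3 differed between the 2 times of Dex. By the authors' own test of 24 h against 1 h, its log2 fold was −1.03 ± 0.33, with a q-value of 0.00238 in the authors' deposited table, while its log2 fold over control was −0.15 ± 0.32 at 1 h and −1.18 ± 0.32 at 24 h. None of the other 28 tested genes was called in that comparison, and 2 of the 29, Fabp3 and Hadh (−0.53 ± 0.33), had an unadjusted p-value under 0.05, against 12.4% of all tested genes.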

How the results depend on the processing

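Of 39 alternative values for the counts, medians and GR regions, 35 lay within 1.5 times the reported count or within the median SE of the reported median. The median SE was about 0.32 in each comparison, larger than each reported median. A median could thus have changed sign within this limit, which makes it a weak check. Without rows that share their locus or symbol, the count of called genes was 0 at 24 h and 0 for 24 h over 1 h, since Fabp3 shares its locus with Zcchc17. With the joint row of Cd36, an alternative chosen after seeing the data, the count at 24 h was 2, and at a q-value of at most 0.01 it was 1. The count at 1 h was 0 under all 6 alternatives. Most of these only narrowed the authors' calls, so they could not have raised a count of 0. The median log2 fold at 24 h ranged from −0.11 to −0.08 and that at 1 h from −0.06 to −0.05. With only regions at or above the median height, 7 of the 30 genes had a GR region, and with only regions within 10000 bases of the start 11 had one. No call of a named gene changed direction with 1 added to both FPKM values or with centring. With 1 added, the 24 h log2 fold of Rxrg was −1.11. The median of all genes moved by at most 0.01 (log2) with centring. No paired analysis was possible because each group has 1 sample, and leaving out a replicate was not possible for the same reason. No alternative was computed for the promoter motifs. An unknown depth and 1 value per group limit every statement on genes that were not called.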
